A study of Mus musculus with 2 samples.

Results

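Sonic hedgehog, the ligand encoded by Shh, and the 5 genes that act in its maturation and release (Hhat, Disp1, Scube1, Scube2 and Scube3) were followed through the cells of newborn mouse skin. The 6 genes were chosen by symbol, for their known roles, from the 56694 genes in the count tables, and all 6 were measured. Back skin at postnatal day 2 was stripped of dermis with collagenase, and the epidermal sheet with its hair follicles was dissociated with trypsin and sequenced as droplet-based single-cell RNA libraries that read the polyadenylated end of each transcript. There was 1 library per genotype. The Control mouse skin carries the label WT, and the study's methods describe its controls as floxed littermates without Cre. The Gli2EKO skin came from K14Cre tg, Gli2 fl/fl mice, in which Cre under the keratin 14 promoter removes the transcription factor Gli2 from keratinocytes and not from dermal cells. The mice were kept on a C57BL/6N background, and how many animals were pooled into a library is not stated.

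After the study's limits on detected genes and mitochondrial UMIs (unique molecular identifiers, each counting 1 captured transcript) and the removal of likely doublets, 4456 Control and 3093 Gli2EKO cells were kept, with 59102366 and 41459474 UMIs in all and medians of 11806 and 11909 per cell. Levels are given as UMIs per 1000000 UMIs of the same cells (CPM). No cell barcode was shared between the libraries. Of the 7549 cells, 5625 were keratinocytes and 1924 were other cells of the dermis and its vessels, nerves and pigment. With 1 library per genotype no difference between genotypes could be tested: every interval below is a 95% interval for counting error only, and animal, library and genotype cannot be told apart. The counts are UMIs before amplification, but the intervals do not cover the spread between animals. Those of levels and level ratios also treat the UMIs of 1 cell as independent and leave out the spread between cells. Gli2 itself, at 83.6 CPM in Control keratinocytes and 85.1 in Gli2EKO keratinocytes, could not check the labels, because the deleted exons are not named and the assay reads the polyadenylated end.

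Hedgehog ligands are made as precursors that cut themselves and take up cholesterol. Hhat, an acyltransferase of the secretory pathway, adds a palmitate to the other end, and Disp1, a membrane transporter, hands the lipid-bearing ligand to the secreted Scube proteins, which carry it away from the cell. The ligand then binds Ptch1 on receiving cells, which frees Smo to activate the Gli factors. In the growing hair follicle Shh comes from the epithelial matrix at the base of the bulb and is received by matrix keratinocytes around it and by the dermal papilla, the mesenchymal condensate that the matrix encloses.

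In GENCODE M39 on GRCm39, Shh lies on chromosome 5 from 28661813 to 28672254 on the minus strand, with 3 exons in its canonical transcript. Disp1 (182844978 to 183003093) and Hhat (192179016 to 192453562) are both on the minus strand of chromosome 1. The 3 Scube genes lie apart, Scube1 on chromosome 15 from 83486786 to 83609245, Scube2 on chromosome 7 from 109395631 to 109464906 and Scube3 on chromosome 17 from 28360946 to 28393833, and each has 22 exons in its canonical transcript. Shh shares 8983 bases with 9530036O11Rik, a long non-coding RNA on the opposite strand. Hhat overlaps the end of Kcnh1 by 13452 bases and Scube3 overlaps the end of C230013L11Rik by 203 bases, again on opposite strands. Whether strand was used in counting is not given in the sources used here, so reads of these pairs may not be fully apart.

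The promoters of the Scube genes are shown because Scube2 differed from Scube1 and Scube3 in the class where it was highest. They span 250 bases before to 50 after the transcript start, come from RefSeq on GRCm38.p6 and are written 5′ to 3′ on the strand of the gene, with CG dinucleotides in capitals. Of the 6 genes, 5 had an entry there; Shh had none. The windows are chr15:83724990-83725289 (minus strand) for Scube1, chr7:109865630-109865929 (minus strand) for Scube2 and chr17:28142059-28142358 (plus strand) for Scube3.
Scube1: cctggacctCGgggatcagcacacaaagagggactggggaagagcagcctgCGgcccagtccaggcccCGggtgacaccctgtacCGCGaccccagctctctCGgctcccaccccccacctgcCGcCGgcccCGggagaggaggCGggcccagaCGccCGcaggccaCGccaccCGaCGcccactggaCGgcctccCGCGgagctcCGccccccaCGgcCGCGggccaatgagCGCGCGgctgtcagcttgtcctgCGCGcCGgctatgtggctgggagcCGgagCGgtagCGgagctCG
Scube2: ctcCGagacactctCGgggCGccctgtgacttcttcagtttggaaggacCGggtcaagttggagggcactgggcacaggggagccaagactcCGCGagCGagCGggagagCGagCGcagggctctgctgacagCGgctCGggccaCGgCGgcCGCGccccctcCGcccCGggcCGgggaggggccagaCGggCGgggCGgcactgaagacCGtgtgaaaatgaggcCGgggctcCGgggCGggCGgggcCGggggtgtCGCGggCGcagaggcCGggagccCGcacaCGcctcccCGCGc
Scube3: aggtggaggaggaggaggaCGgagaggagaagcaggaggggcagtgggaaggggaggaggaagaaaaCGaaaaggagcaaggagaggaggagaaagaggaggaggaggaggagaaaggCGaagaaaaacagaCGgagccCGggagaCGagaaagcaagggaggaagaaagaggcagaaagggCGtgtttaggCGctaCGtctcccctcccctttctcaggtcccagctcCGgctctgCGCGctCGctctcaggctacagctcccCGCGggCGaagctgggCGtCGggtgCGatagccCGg
The Scube1 window held 32 CG dinucleotides and that of Scube2 held 36, as many as or more than 91.4% and 94.4% of the 32851 promoters in the same table, whose median was 7. That of Scube3 held 20, as many as or more than 75.2% of them. None of the 3 windows held the letters GACCACCCA, a motif bound by Gli factors, on either strand, which 0.253% of all promoters held. Likewise none held CTTTGAA or CTTTGAT, letters bound by Tcf and Lef factors, on either strand, which 8.65% of all promoters held.

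Keratinocyte clusters were named by markers, and the Hedgehog genes were kept out of the genes used to cluster. The matrix/progenitor-like cells (405 Control, 166 Gli2EKO) were 1 cluster in which all 6 matrix markers were found, with Lef1 in 87.9%, Msx2 in 59.5% and Edar in 49.2% of cells. Its leading genes by fold were Dcn, Mt2, Mt1, Cldn10, Krt28, Msx1, Mt4, Shh, Lef1 and Ube2c, so that Shh itself was among them although it had not been used, and so was Dcn, a fibroblast marker. The inner root sheath-like (IRS-like) cells (339 and 135) carried Krt25 in 60.8% and Krt71 in 43.5% of cells. The dermal papilla-like cells (192 and 154) carried Rspo3 in 91.6% and Corin in 83.0% of cells. The pair of keratinocyte clusters led by Tagln stayed unnamed.

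Shh was found in few cells, most of them matrix/progenitor-like or IRS-like. Over both libraries 276 of the 7549 cells held a Shh UMI, 179 in Control and 97 in Gli2EKO. Of these, 156 (56.5%, 50.4 to 62.5) were matrix/progenitor-like, 67 (24.3%) were IRS-like and 13 were hair shaft-like. In the matrix/progenitor-like cells Shh had 580 UMIs in Control, or 84.7 CPM (77.9 to 91.9), and 321 in Gli2EKO, or 113 CPM (101 to 126). In IRS-like cells the level was 36.9 CPM (30.9 to 43.7) in Control and 42.6 (32.8 to 54.5) in Gli2EKO. Hair shaft-like cells, the next class, reached 6.47 and 9.82 CPM. The order matrix/progenitor-like, IRS-like, hair shaft-like held in both libraries, and the intervals of neighbouring classes in this order did not overlap. Matrix/progenitor-like cells carried 77.4% of all Shh UMIs of both libraries.

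**Figure D1:**
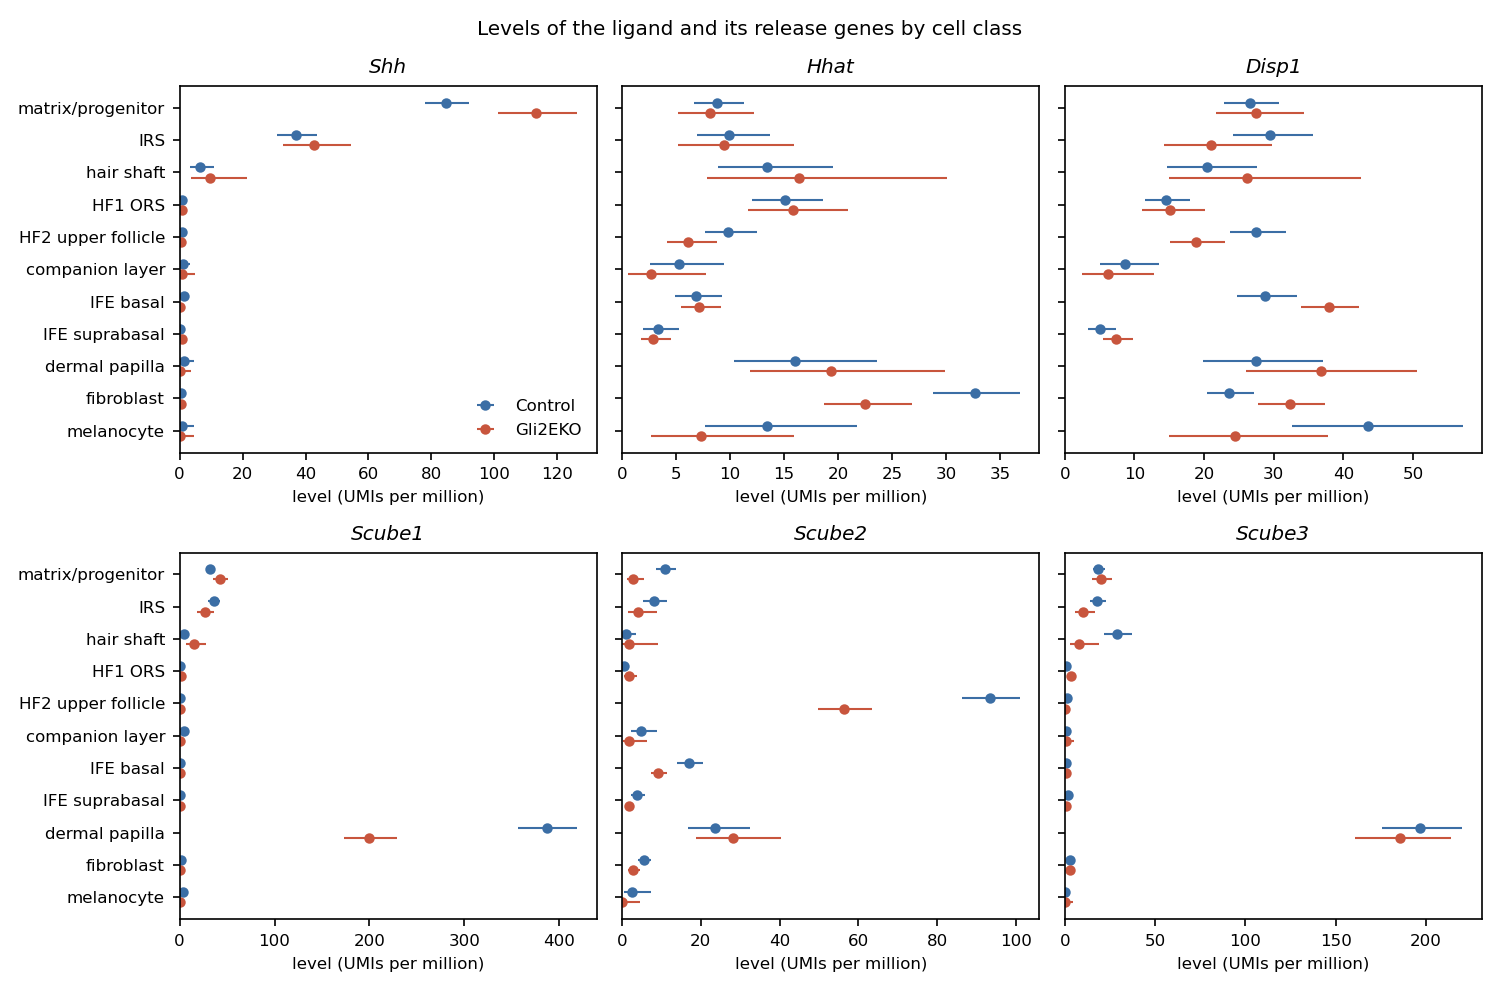
Level of each gene (CPM, linear axis that differs between panels) in the named cell classes with 50 or more cells in each library, Control in blue and Gli2EKO in red; points are summed levels and bars are 95% Poisson intervals. Shh stands out in matrix/progenitor-like and IRS-like cells, Scube1 and Scube3 in dermal papilla-like cells, Scube2 in upper follicle-like cells, and Hhat and Disp1 are spread over all classes.

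Outside the matrix/progenitor-like, IRS-like and hair shaft-like classes Shh was sparse. Immune-like and endothelial-like cells, which should lack the gene, held 0 Shh UMIs in 114 Control and 52 Gli2EKO cells. The Control counts allow up to 3.10 CPM there, below the interval of Control hair shaft-like cells (3.44 to 11.1). Keratinocytes outside the matrix/progenitor-like and IRS-like classes had 39 Shh UMIs in 2579 Control cells (1.09 CPM), 13 of them in hair shaft-like cells, and 16 in 2001 Gli2EKO cells (0.555 CPM), 6 of them in hair shaft-like cells. With each cell thinned to 2000 UMIs, 10.2% (7.40 to 13.6) of Control and 11.4% (7.03 to 17.3) of Gli2EKO matrix/progenitor-like cells held a Shh UMI, against 7 of 2577 Control (0.272%, 3 of the 7 hair shaft-like) and 2 of 1994 Gli2EKO keratinocytes outside both classes. The 0 of 114 Control immune-like and endothelial-like cells allows a share of up to 3.18%, so that background and a low true level could not be told apart there. Without thinning the matrix/progenitor-like shares were 23.5% and 36.7%.

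Within the matrix/progenitor-like class a minority of cells carried most of the ligand transcript. Of the 156 cells with Shh, 48 held 1 UMI and 34 held 10 or more, and the latter carried 57.8% of the Shh UMIs of the class. The highest cell held 33 UMIs in Control and 27 in Gli2EKO, and the median cell with Shh held 4 in both. Depth was alike in cells with and without Shh: median totals were 17149 and 17050 UMIs in Control and 16579 and 15558 in Gli2EKO.

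Shh per matrix/progenitor-like cell was not lower in Gli2EKO, but there were fewer such cells. The level was higher in Gli2EKO by 0.42 on the log2 scale (0.22 to 0.62) within the class and by 0.21 (−0.25 to 0.65) in IRS-like cells. The interval within the class leaves out the spread between cells, and 34 cells of both libraries carried 57.8% of its Shh UMIs. At 2000 UMIs per cell the shares of the class with Shh, 10.2% in Control and 11.4% in Gli2EKO, had overlapping intervals. Over all keratinocytes the Shh level was lower, with a log2 ratio of −0.44 (−0.61 to −0.26), from 16.3 to 12.1 CPM. Matrix/progenitor-like cells were 12.2% of Control and 7.21% of Gli2EKO keratinocytes, and IRS-like cells were 10.2% and 5.86%. With the Gli2EKO class levels weighted to the Control class sizes, the keratinocyte level came to 20.9 CPM, or 0.35 above Control on the log2 scale. Class sizes also depend on dissociation and capture, and their part in these ratios was not tested. After thinning to 2000 UMIs, 2.02% of Control (1.57 to 2.56) and 1.49% of Gli2EKO keratinocytes (1.03 to 2.07) held a Shh UMI, intervals that overlap. The other Hedgehog ligands were nearly undetected in keratinocytes: Ihh had 1 UMI in each library, and Dhh had 4 and 5, most Dhh UMIs (27 of 38 in Control) lying in 24 Schwann-like cells.

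Among matrix/progenitor-like cells, Scube1 was found mostly in those that held Shh. In Control matrix/progenitor-like cells, 58 of 95 cells with Shh (61.1%, 50.5 to 70.9) also held a Scube1 UMI, against 8 of 310 cells without Shh (2.58%). In Gli2EKO the shares were 28 of 61 (45.9%, 33.1 to 59.2) and 6 of 105 (5.71%). Read from the other side, 87.9% of the 66 Control cells and 82.4% of the 34 Gli2EKO cells of the class with Scube1 also held Shh. Cells with Shh carried 24.1% of all UMIs of the Control class and 94.5% of its Scube1 UMIs, and 39.9% and 93.3% in Gli2EKO. The Scube1 level was 125 CPM in Control cells with Shh and 2.31 in cells without, and 98.9 and 4.69 in Gli2EKO. At a common depth of 5000 UMIs, 43.0% of Control cells with Shh (32.8 to 53.7) and 1.09% of those without (0.225 to 3.14) held Scube1. The same shares in Gli2EKO were 26.7% (16.1 to 39.7) and 2.04% (0.248 to 7.18), so that the pairing appeared in both libraries.

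**Figure D2:**
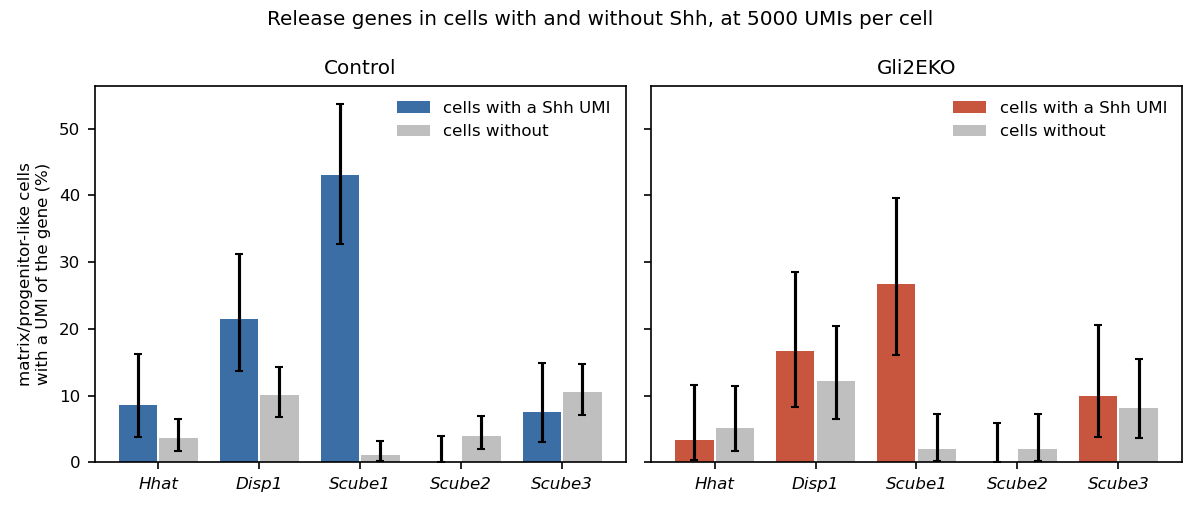
Share of matrix/progenitor-like cells (%) with a UMI of each release gene after thinning every cell to 5000 UMIs, in cells with a Shh UMI at full depth (coloured) and without (grey), for each library; bars are shares and whiskers 95% Clopper-Pearson intervals. Scube1 reaches 43.0% and 26.7% in cells with Shh against 1.09% and 2.04% in cells without. Scube2 was found in none of the cells with Shh and in 3.99% and 2.04% of those without, with overlapping intervals.

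Scube2 was found mostly in matrix/progenitor-like cells that held no Shh. Cells without Shh were themselves the larger part of the class, 310 of 405 in Control and 105 of 166 in Gli2EKO. Scube2 had 74 UMIs in 33 Control cells of the class, and only 2 of the 33 held Shh. Cells with Shh had 1.21 Scube2 CPM, a count of 2 UMIs, and cells without had 13.9, a log2 ratio of −3.51 (−6.59 to −1.61). In Gli2EKO the class held 8 Scube2 UMIs in all, none of them in a cell with Shh, where 3 UMIs would make 2.65 CPM. Thus most cells with Scube2 and most cells with Scube1 were different cells: of the 33 Control cells with Scube2, 1 held Scube1.

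Disp1 was found in more cells with Shh than without. It was in 48 of 95 Control cells with Shh (50.5%) and in 73 of 310 without (23.5%), and in 27 of 61 (44.3%) and 24 of 105 (22.9%) in Gli2EKO. The level ratio was 1.18 on the log2 scale in Control (0.73 to 1.61) and 1.19 in Gli2EKO (0.51 to 1.89). Scube3 had a ratio of 0.36 (−0.24 to 0.92) in Control and of 1.26 (0.45 to 2.10) in Gli2EKO. Hhat, with 60 and 23 UMIs in the class, gave 0.87 (0.04 to 1.66) and −0.91 (−2.54 to 0.50), so that its direction differed between the libraries. At 5000 UMIs the Disp1 shares were 21.5% against 10.1% in Control and 16.7% against 12.2% in Gli2EKO, with overlapping intervals in both.

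In IRS-like cells the same pairing was seen in Control, and in Gli2EKO it rested on few cells. Scube1 was in 26 of 43 Control cells with Shh (60.5%, 44.4 to 75.0) and in 20 of 296 without (6.76%). In Gli2EKO it was in 7 of 24 (29.2%, 12.6 to 51.1) and 6 of 111 (5.41%). At 5000 UMIs the shares were 14 of 33 and 12 of 234 in Control, but 1 of 15 and 4 of 78 in Gli2EKO, where the difference was not detectable at this depth. The log2 ratio of its level at full depth was 3.54 (3.01 to 4.07) in Control and 1.44 (0.45 to 2.42) in Gli2EKO. Disp1 had ratios of 1.77 (1.13 to 2.38) and 1.38 (0.25 to 2.49). Scube2 had 29 UMIs in Control IRS-like cells, 0 of them in cells with Shh. In Gli2EKO it had 6, of which 4 were in cells with Shh, a log2 ratio of 2.66 (−0.14 to 6.13). Of the list of IRS keratins and trichohyalin, 2 of 6 genes tested were lower by 1 log2 unit or more in both libraries, Krt71 and Tchh. Krt71 had 304 CPM in Control cells with Shh and 2096 in those without, and 73.3 and 1378 in Gli2EKO. Tchh, which encodes trichohyalin, had 164 and 1091 in Control and 64.8 and 1948 in Gli2EKO. Of the 5295 genes tested, 0.264% were lower and 0.321% were higher by that size. The log2 ratios of the others were −2.21 and −0.35 for Krt25, −1.01 and −0.71 for Krt27, −0.10 and 0.37 for Krt28 and 0.54 and 1.19 for Krt73, so that Krt73 went the other way.

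What else accompanied Shh was asked in the matrix/progenitor-like class over all genes with 50 or more UMIs in each library. Ratios were taken after adding 0.5 UMIs. Of 6956 genes, 62 (0.891%) were higher and 43 (0.618%) were lower by 1 log2 unit or more in both libraries in cells with Shh. The 10 highest by the smaller of both ratios were Scube1 (5.70 in Control, 4.32 in Gli2EKO), Sp5, Slc40a1, Wif1, Wnt10b, Bmp2, Kremen2, 9530036O11Rik, Tspear and Lrp4. With Shh found after thinning to 5000 UMIs the smaller Scube1 ratio was 2.45, and with a filter of 20 UMIs or no filter the 62 genes became 113 or 1396. Wnt10b, a Wnt ligand of the hair placode and matrix, had 133 CPM with Shh and 4.81 without in Control, and 77.7 and 9.97 in Gli2EKO. Wif1, a secreted Wnt inhibitor, had 507 and 25.6 in Control and 295 and 37.5 in Gli2EKO. Bmp2, a bone morphogenetic protein, had 204 and 15.6 in Control and 147 and 21.7 in Gli2EKO. Sp5, a transcription factor that responds to Wnt, had 26.7 and 1.92 in Control and 59.2 and 1.17 in Gli2EKO, from few UMIs in the cells without Shh. Slc40a1, which encodes the iron exporter ferroportin, had 118 and 11.5 in Control and 143 and 9.97 in Gli2EKO. Kremen2 and Lrp4, membrane proteins that modulate Wnt reception, had log2 ratios of 2.89 and 2.43 in Control and 2.59 and 2.53 in Gli2EKO.

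**Figure D3:**
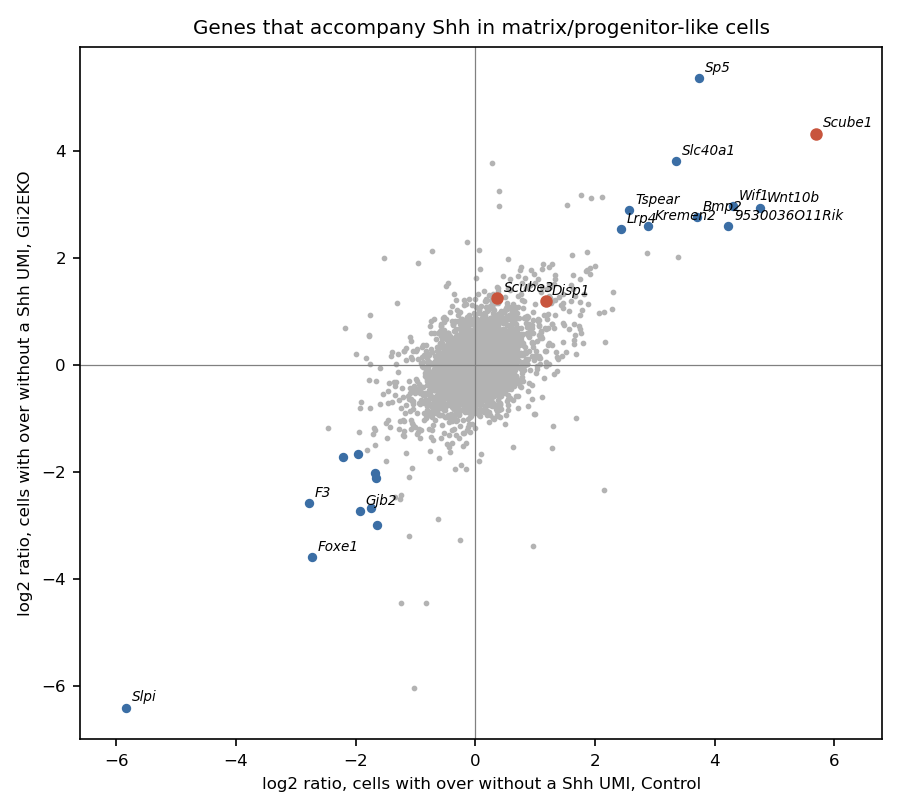
Log2 ratio of each of 6956 genes in matrix/progenitor-like cells with a Shh UMI over cells without, in Control (horizontal axis) and Gli2EKO (vertical axis); grey points are genes, blue points the 10 highest and 10 lowest by rank (0.5 UMIs were added before each ratio), red points the release genes Scube1, Disp1 and Scube3. Scube1 lies at 5.70 and 4.32, the farthest right, with Sp5 above it at 3.74 and 5.35, while Slpi and Foxe1 lie at the opposite corner.

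By list, all 8 genes tested of the readout of Wnt/beta-catenin signalling were higher in cells with Shh in both libraries, where 31.5% of all genes were, 4 of them by 1 or more (Sp5, Axin2, Nkd1 and Apcdd1), with medians of 0.89 in Control and 0.81 in Gli2EKO beside 0.01 and 0.02 over all genes tested. Axin2, a feedback inhibitor of the pathway, had ratios of 1.79 and 1.02. Of 11 other secreted ligands tested, 4 were higher by 1 or more (Wnt10a, Wnt10b, Bmp2 and Bmp4). Edar, the receptor for ectodysplasin, had ratios of 1.63 and 1.68. Of the 3 ectodysplasin pathway genes tested it was the only 1 higher in both libraries, and 1 was lower in both. Of 10 matrix transcription factors tested, 2 were higher and 5 lower in both libraries, where 2194 and 1969 of all 6956 genes were. Of the release list 3 genes passed the filter on low counts (Scube1, Disp1 and Scube3), the other 5 being too low, and the first 2 of these were higher by 1 or more. In the cell-cycle lists, none of 15 S-phase and none of 15 G2/M genes differed by 1 or more in both libraries. None of the 4 fibroblast markers tested differed by 1 or more in both libraries. Cells are not replicates, and these counts carry no test.

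On the receiving side of the pathway, 1 of 5 reception genes tested was higher by 1 or more in cells with Shh in both libraries, and of 8 targets tested 1 was higher and 1, Foxe1, was lower by that size. Ptch1, the receptor and a direct target, had ratios of 0.02 in Control and 0.41 in Gli2EKO, Smo −0.03 and −0.12, and Gli1, a target that reads pathway output, 0.05 and 0.19. Foxe1, a transcription factor downstream of Shh in the follicle, had ratios of −2.74 and −3.59. Slpi, a secreted protease inhibitor, had 0 UMIs in the cells with Shh of either library and 17.3 and 36.9 CPM in those without. F3, which encodes tissue factor (−2.79 and −2.58), and Gjb2, a gap junction protein (−1.94 and −2.73), were also among the lowest, with Gnmt, Slit3, Sulf2, Cald1, Gm14636 and Ndrg1. Among the markers of other cells, Tagln and Acta2 were lower with Shh in both libraries and were the only 2 smooth muscle/pericyte markers tested. None of the dermal papilla, immune or Schwann markers passed the filter on low counts in this class.

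Scube1 and Scube3 both had their highest levels outside the epithelium, in the dermal papilla-like cells. Scube1 reached 387 CPM there in Control (356 to 419; 605 UMIs) and 199 in Gli2EKO (173 to 229; 206 UMIs). It was in 66.1% of the Control and 48.7% of the Gli2EKO cells of the class, whose median depths were 7853 and 6504 UMIs. At 5000 UMIs per cell the shares were 111 of 180 and 60 of 130, with overlapping intervals. At 2000 UMIs they were 81 of 192 and 36 of 154, with intervals that did not overlap. Among the other classes of 50 or more cells, the IRS-like and matrix/progenitor-like classes followed at 36.1 and 31.8 CPM in Control, where their intervals overlapped. The 24 Control Schwann-like cells had 31.7 CPM (15.2 to 58.4) from 10 UMIs, and fibroblast-like cells had 1.48. Scube3 reached 197 CPM in Control dermal papilla-like cells (175 to 220) and 186 in Gli2EKO (160 to 214). In the epithelium of Control its levels were 28.8 in hair shaft-like (21.9 to 37.3), 18.7 in matrix/progenitor-like (15.6 to 22.2) and 17.9 in IRS-like cells (13.8 to 22.8). These intervals overlapped, and in Gli2EKO the levels of the same classes were 8.18, 20.1 and 10.1 CPM, another order. Of the dermal papilla-like cells, 88 of the 127 Control cells with Scube1 held Scube3 (69.3%), against 37 of the 65 without (56.9%). Shh itself had 2 UMIs in these 192 cells and 0 in the 154 Gli2EKO cells, while Ptch1 and Hhip, targets of the pathway, stood at 1323 and 1140 CPM in Control.

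Scube2 marked a different part of the follicle. Its highest level was in the upper follicle-like cells, which carried Sostdc1 in 93.6% and Lgr6 in 83.0% of cells, with 93.5 CPM in Control (86.4 to 101) and 56.3 in Gli2EKO (49.9 to 63.4). Within that class, 1 cluster led by Fst and Igfbp2 held most of it, at 130 and 77.5 CPM, and the other, led by Ncam1 and Adamts17, had 113 UMIs in 275 cells and 21 in 140. Dermal papilla-like cells (23.6 and 28.1) and basal interfollicular epidermis-like cells (17.1 and 9.11) came next. In 543 Control upper follicle-like cells, 221 held Scube2 and 2 held Scube1.

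Hhat and Disp1 were spread over all classes at low levels. Disp1 lay between 5.03 CPM (suprabasal interfollicular epidermis-like) and 43.6 (melanocyte-like) in the Control classes plotted, and most neighbours in that order had overlapping intervals. Hhat lay between 3.29 in the same suprabasal cells and 32.6 (28.8 to 36.8) in fibroblast-like cells, the highest of them in both libraries, although in Gli2EKO (22.5) its interval overlapped that of dermal papilla-like cells (19.4). In Control matrix/progenitor-like cells, where the ligand was, Hhat stood at 8.76 CPM and Disp1 at 26.6. An unnamed cluster of 65 non-keratinocytes of low depth had higher values still (96.5 and 139 for Hhat), from 20 and 10 UMIs.

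Between genotypes, the release genes differed by class. Scube1 was lower in Gli2EKO dermal papilla-like cells, with a log2 ratio of −0.96 (−1.19 to −0.72), and lower in each of the 2 clusters of that class (−0.90 and −0.75). In matrix/progenitor-like cells the ratio was 0.41 (0.08 to 0.74) and in IRS-like cells −0.45 (−1.01 to 0.07). Scube3 in the same dermal papilla-like cells had a ratio of −0.08 (−0.35 to 0.18). Cre does not act in the dermal papilla, so that these cells had kept Gli2 by design. Of the 7687 genes tested in this class 1.24% were lower by 1 or more, and Scube1 fell just short of that size. Gli2 stood at 242 and 240 CPM there, but, as in keratinocytes, its counts could not check whether it had been deleted. Hhip, the membrane inhibitor of Hedgehog ligands, had −0.81 there (−0.94 to −0.68), Ptch1 −0.10 (−0.20 to 0.00) and Gli1 0.39 (0.03 to 0.75).

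**Figure D4:**
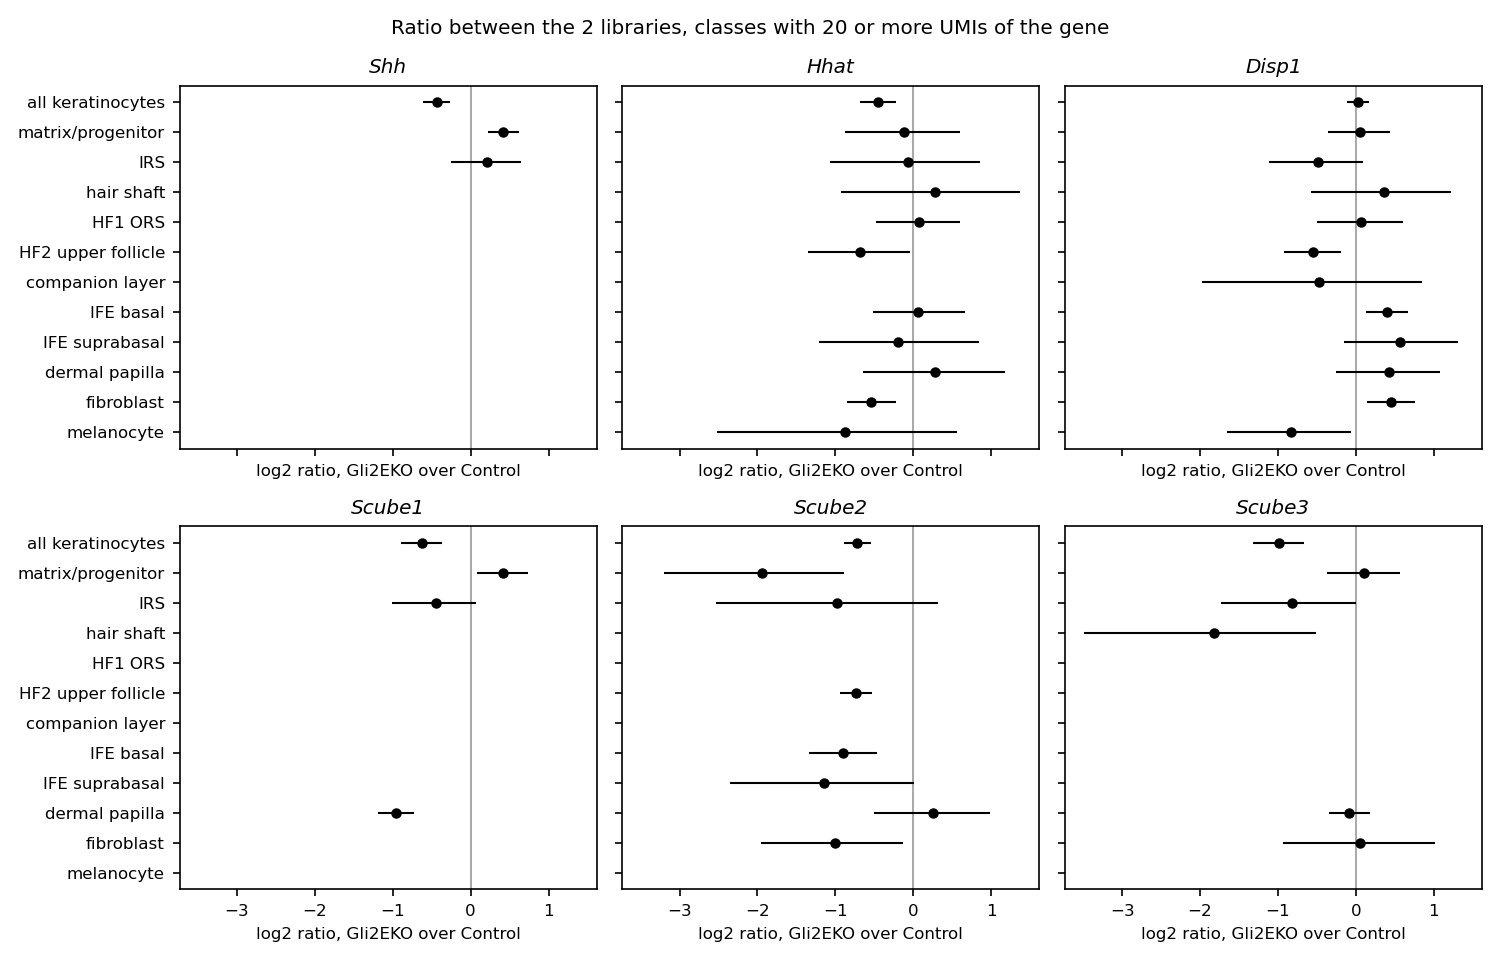
Log2 ratio of each gene, Gli2EKO over Control, over all keratinocytes and within cell classes where the gene had 20 or more UMIs over both libraries; points are ratios of summed levels and bars 95% conditional binomial intervals that cover counting error only. Shh lies above 0 in matrix/progenitor-like cells and below 0 over all keratinocytes, and the Scube2 ratios lie below 0 in every keratinocyte class shown.

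Scube2 had a ratio below 0 in each of the 5 named keratinocyte classes with 20 or more of its UMIs, and in 3 of them the interval excluded 0. In upper follicle-like cells the ratio was −0.73 (−0.94 to −0.53), in basal interfollicular epidermis-like cells −0.90 (−1.34 to −0.47) and in matrix/progenitor-like cells −1.94 (−3.20 to −0.89), from 74 to 8 UMIs. The matrix/progenitor-like value rests on 33 Control and 4 Gli2EKO cells with Scube2. At 5000 UMIs per cell the shares there, 11 of 369 and 2 of 158, had overlapping intervals. Lower by 1 or more were 1.70% of the 10073 genes tested in matrix/progenitor-like cells, Scube2 among them, and 2.01% of 10841 in upper follicle-like cells, Scube2 not among them. In dermal papilla-like cells Scube2 had 0.25 (−0.51 to 0.99). Scube3 in hair shaft-like cells went from 58 UMIs in 203 cells to 5 in 80, a ratio of −1.82 (−3.49 to −0.51), where 1.82% of 7096 genes were lower by 1 or more. Its shares in that class at 5000 UMIs per cell, 21 of 167 in Control and 2 of 53 in Gli2EKO, had overlapping intervals. Disp1 had 0.40 (0.13 to 0.67) in basal interfollicular epidermis-like, 0.45 (0.15 to 0.75) in fibroblast-like and −0.55 (−0.93 to −0.18) in upper follicle-like cells. Hhat was lower in fibroblast-like cells (−0.54, −0.86 to −0.22) and upper follicle-like cells (−0.68, −1.36 to −0.05). Over all keratinocytes the ratios were −0.62 for Scube1, −0.72 for Scube2, −0.99 for Scube3, −0.45 for Hhat and 0.03 for Disp1. Weighted to Control class sizes they became 0.16, −0.80, −0.33, −0.26 and −0.06, so that the direction for Scube1 turned and that for Scube2 held. Over all genes tested the median ratio was −0.14 in all keratinocytes and −0.06 in matrix/progenitor-like cells.

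The targets of the pathway were set beside these levels, class by class. Over all keratinocytes, all 9 genes of the target list had ratios whose intervals lay below 0, as had 41.2% of the 15619 genes tested, with Gli1 at −0.84 and Ptch1 at −0.61. In matrix/progenitor-like cells, where Shh was highest, 2 of 8 targets lay below (18.6% of all genes) and 1 above (11.5%), with Gli1 at −0.20 (−0.61 to 0.20) and Ptch1 at −0.13 (−0.27 to 0.00). In IRS-like cells 7 of 8 lay below, as did 19.9% of all genes and 12 of 15 G2/M genes, with Ptch1 at 276 CPM in Control and 121 in Gli2EKO. In basal interfollicular epidermis-like cells, where Shh had 8 UMIs in Control and 0 in Gli2EKO, 4 of 6 lay above, where 14% of all genes did, with Ptch1 at 41.2 and 146 CPM and Gli1 at 2.76 and 8.99. Of the release list there, Disp1 had an interval above 0 and Scube2 one below.

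Across 27 profiles (a class in a library, with 50 or more cells), the genes whose level on the log2 scale was most like that of each member were named among 13531 genes. For Shh they were 9530036O11Rik, the overlapping antisense RNA (Pearson's r = 0.937), Ascl4 (0.926), Gm31727, Gm37194 and Has3. The antisense RNA had 204 UMIs in Control matrix/progenitor-like cells, 175 of them in cells with Shh, and 131 and 105 in Gli2EKO. Scube1 and Scube3 were most like each other (0.945), and Bmp4 and Chst8 were among the 5 nearest of both. For Scube2 they were Gm42906 (0.905), Tox3, Trpc4, Tafa1 and Ccdc3, for Hhat Pigk (0.898) and for Disp1 Rev1 (0.815). Shh and Scube1, paired within matrix/progenitor-like cells, had an r of only 0.409 over the profiles. These profiles share libraries and cell numbers, so the values describe the classes and carry no test.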

How the data were processed

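The authors deposited raw UMI counts per gene and cell barcode, made with Cell Ranger 9.0.1 on GRCm39 from 10x libraries (submitters' processing notes and methods). Intron and strand settings are not given in the sources used here. The files held 6326 and 4296 barcodes with 71021773 and 48866478 UMIs. Cells with over 1000 and under 8000 genes and under 15% mitochondrial UMIs were kept (4844 and 3362). The 8% with the highest Scrublet scores were then removed per library, since the automatic threshold marked 261 and only 5 cells. The study used another doublet caller.

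Cells were clustered with Seurat 5.3.0 in R 4.3.3 (2000 variable genes without Hedgehog genes, 20 components, resolution 0.5) after integration by a rewritten Harmony algorithm, keratinocytes and other cells apart. Clusters were named "-like" from marker lists (score of 1 or more, 3 or more markers in 10% of cells, no other class leading the top 10 genes), so names can differ from those of the study. Counts were summed per class and library in Python 3.11.15 with scanpy 1.11.5, numpy 2.4.6 and scipy 1.17.1. Intervals are exact Poisson, Clopper-Pearson and conditional binomial at 95%, for counting error only. Genes at 50 or more UMIs per library entered the ratios with over without Shh, those at 50 or more UMIs over both libraries the ratios between genotypes, and a log2 ratio of 1 was the limit for a call. Scripts were tested on simulated data.

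The members and lists were chosen with earlier results of these data known. Genes named are the members, genes of fixed lists, the 10 highest and lowest with Shh, overlapping genes, and the 5 most like each member in profile (log2 of CPM plus 10, genes with 200 or more UMIs). Alternatives changed the doublet removal, integration, resolution, class rule, variable genes, gene limits, scaling, thinning, Shh threshold and gene filter. Some list members are not reported here.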

Additional observations from a re-analysis of the deposited data

Results flagged for a closer look

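For 2 genes the ratio between genotypes had intervals on opposite sides of 0 in different cell classes (each with 50 or more cells in both libraries and 20 or more UMIs). With 1 library per genotype these differences were not tested. For Scube1 the log2 ratio of Gli2EKO over Control was 0.41 in matrix/progenitor-like cells and −0.96 in dermal papilla-like cells, a difference of 1.37. For Disp1 the ratio in basal interfollicular epidermis-like cells (0.40) exceeded that in upper follicle-like cells (−0.55) by 0.951 and that in melanocyte-like cells (−0.84) by 1.24. Its ratio in fibroblast-like cells (0.45) exceeded the same pair by 1.00 and 1.29. The melanocyte-like values rest on 52 and 20 Disp1 UMIs.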

How the results depend on the processing

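No paired analysis was possible because there was 1 library per genotype and no test was run. Of 199 alternative values compared, 163 stayed within the counting error or count limit, 36 moved and 0 reversed. Only a ratio between genotypes whose main interval excluded 0 could count as reversed. Shares, levels, gene counts and the other ratios could only stay or move. The cause was not tested where values moved. The share of Shh UMIs in matrix/progenitor-like cells (77.4%) was 67.6% without doublet removal, 85.7% at resolution 0.8, 72.9% with each cell classed by its own markers and 64.2% from means of cells. With cells classed by their own markers, the log2 ratio between genotypes in matrix/progenitor-like cells was 0.74 for Shh and −3.42 for Scube2, and the highest class level was 286 CPM for Scube1 (312 over both libraries in the main setting) and 170 for Scube3 (192). The 62 genes that accompanied Shh were 113 with a filter of 20 UMIs and 1396 without a filter, which admits genes of few UMIs (43 lower genes became 87 and 322). With Shh found after thinning to 5000 UMIs, the smaller Scube1 ratio with over without Shh was 2.45. The highest Scube2 level (78.1 CPM) was 56.9 without doublet removal, 90.1 with 12% removed, 98.2 at resolution 0.8, 100.4 by own markers, 86.9 with Hedgehog genes among the variable genes, 89.1 without the upper gene limit and 69.0 from means of cells. For Hhat and Disp1 the highest class changed with the setting, because their main values (107 and 71.6 CPM) came from a small unnamed cluster. Hhat gave 48.5 without doublet removal, 150.8 with 12% removed, 30.1 without integration, 30.1 at resolution 0.3, 30.2 at resolution 0.8, 30.3 by own markers, 176.8 without the upper gene limit and 28.5 with classes of 50 or more cells. Disp1 gave, in the same order, 48.4, 109.2, 60.0, 60.0, 60.0, 42.7, 88.4 and 35.8.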
